A study of Mus musculus with 15 samples.

Results

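Large chromatin regulators were described in regenerated mouse skin as a set of 42 genes, all of which were present among the 18929 genes of the deposited table and passed the filter on low counts that left 15369 genes for testing. The genes were chosen by the measured values of the contrast of MSC-laden with acellular beads, in which transcripts of Chd7 and Med13l were lower in skin healed with MSC-laden beads than in skin healed with acellular beads, so that values and counts of calls in this contrast are given here as a description only, and nothing is read from them. The samples were dorsal skin of wild-type mice in 5 groups of 3. The wounded mice were male balb/c, aged 4 to 6 weeks at the start, and the age of the mice that gave normal skin is not given in the sources used here. Full-thickness wounds of 10 mm or 15 mm were filled with acellular Matrigel beads, or with printed high-density Matrigel beads (HDB) that carried mesenchymal stem cells (MSCs) from human umbilical cord, with acellular beads in the gaps. The 10 mm wound received 56 HDB beads with 84000 MSCs and the 15 mm wound 120 beads with 180000 MSCs, and normal skin was the fifth group. The methods state 4 weeks after implantation for the sequenced skin, while the wounds were followed to day 21, and both times are given here as stated.

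Chromatin regulators of this kind are the large catalytic and scaffold subunits of multiprotein complexes. Remodellers of the CHD, SWI/SNF (BAF) and INO80 families use ATP to slide, eject or exchange nucleosomes. Methyltransferases, demethylases and acetyltransferases write or erase histone marks, TET enzymes oxidise 5-methylcytosine, and Mediator and cohesin connect enhancers with RNA polymerase II. In skin, such factors are known to act in epidermal differentiation and in the cycling of the hair follicle. Their transcripts are long, and the longest transcript of each of the 42 genes lay between 5921 and 19823 bases (median 9455), against a median of 3349 bases over the 15085 tested genes with a length. Of those genes, 14.5% had a transcript at least as long as that of the shortest regulator.

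Levels were given as CPM (counts scaled to a common library total), scaled by edgeR's TMM factors, and were divided by the longest transcript's length where genes were compared with each other. Total counts per sample lay between 15840551 and 18404188. The median regulator had 8.04 CPM per kb, beside 7.99 over all tested genes with a length. On this scale Chd4, the ATPase of the NuRD corepressor, was highest with 39.4 CPM per kb, followed by Smarca4, an ATPase of BAF, with 20.2, and Ncor1, the nuclear receptor corepressor, with 18.7. Tet2, a methylcytosine dioxygenase, had 4.14 CPM per kb. Tet1 with 0.379 and Chd5, a remodeller best known from neurons and testis, with 0.36 were far below the other 40 regulators, and their counts carry the largest counting error of the set.

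The acellular 15 mm group was less uniform than the others, with correlations of log2 CPM between its samples of 0.853 to 0.921, while those of normal skin were 0.983 to 0.989. Its replicate 1 had the highest level of all 15 samples for 31 of the 42 regulators. The same sample had 9336 CPM summed over 7 hair shaft keratins, against 0.536 to 0.703 in normal skin where 3 of these 7 were at 0 in every sample, and 1382 CPM over 6 proliferation genes, against 82.9 to 102 in normal skin and 224 to 589.5 in the other wound samples. Skin markers were present in every sample, with 5998 to 19867 CPM over 5 keratinocyte keratins and 3416 to 23974 CPM over 6 fibroblast genes. Values without this library are given beside some of the main results that it moved, and in bulk tissue fewer cells of a type and less RNA per cell cannot be told apart.

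Promoters of the set are given as a description of sequence, and no link between them and the levels was tested. A RefSeq promoter entry (GRCm38.p6) was matched for 30 of the 42 genes. The entries of Setd5, Tet3 and Kmt2d lay 27673, 15530 and 2872 bases from the 5′ end of the gene in RefSeq, so that they show another start than the outermost one, and Setd5 was the single entry without a CpG and without a GC box in the counts that follow. Over the 250 bases before the start, the matched promoters held a median of 25 CpG dinucleotides, against 12 over 14955 promoters of the table's genes, and 29 of 30 (96.7%) held at least 10, against 58.5%. Those 14955 promoters were not limited to genes that passed the filter on low counts, as all 42 regulators did. The GC box GGGCGG, searched on both strands and containing a CpG itself, was found in 29 of 30 (96.7%), against 49.1%. The TATA box TATAAA was found in 0 of 30, against 9.35%, and the CCAAT box CCAAT in 3 of 30 (10%), against 36.1%. The E-box CACGTG (6.67% against 7.37%) and the ETS motif CCGGAAG (13.3% against 10.5%) were found at similar shares. Upstream sequences are shown for Arid1a and Chd6, which were called higher in healed wounds, and for Chd4, the most abundant regulator per kb, with CpG dinucleotides in capitals. They were at chr4:133756770-133757019 on the minus strand (18 CpG), chr2:161109087-161109336 on the minus strand (19 CpG) and chr6:125095731-125095980 on the plus strand (12 CpG).
Arid1a: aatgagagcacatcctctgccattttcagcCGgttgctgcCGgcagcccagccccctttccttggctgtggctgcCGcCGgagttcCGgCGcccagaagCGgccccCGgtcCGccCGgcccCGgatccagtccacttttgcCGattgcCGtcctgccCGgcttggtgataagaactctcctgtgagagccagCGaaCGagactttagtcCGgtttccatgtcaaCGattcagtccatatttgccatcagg
Chd6: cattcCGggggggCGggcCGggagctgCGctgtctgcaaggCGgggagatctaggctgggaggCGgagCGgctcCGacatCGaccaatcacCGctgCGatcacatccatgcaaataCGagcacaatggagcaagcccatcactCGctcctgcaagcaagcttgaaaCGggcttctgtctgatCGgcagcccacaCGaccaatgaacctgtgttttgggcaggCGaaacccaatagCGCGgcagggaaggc
Chd4: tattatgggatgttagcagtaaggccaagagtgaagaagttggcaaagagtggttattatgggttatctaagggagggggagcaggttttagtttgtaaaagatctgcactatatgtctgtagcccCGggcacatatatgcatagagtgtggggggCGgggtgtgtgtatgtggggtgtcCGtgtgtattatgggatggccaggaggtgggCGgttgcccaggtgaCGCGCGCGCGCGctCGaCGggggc

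The CpGs of Arid1a and Chd6 were spread over the whole window, whereas those of Chd4 were gathered near the start of transcription. A motif match is a description of the sequence and not of binding.

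Healed wounds were first compared with normal skin, over the mean of the 4 wound groups, which weighs HDB and acellular beads equally. Of the 42 regulators, 11 rose and 1 fell in healed skin (edgeR's quasi-likelihood test, Benjamini-Hochberg adjusted over all genes). Of all tested genes, 14.2% rose and 16.7% fell in this comparison. The share of regulators called in either direction, 12 of 42, was thus near that of all genes. Values above 0 were found for 35 of 42 regulators and for 8225 of all 15369 genes tested, with median log2 fold changes of 0.19 and 0.04. This difference was not tested. No regulator changed by 2-fold, and the range was -0.58 to 0.58.

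**Figure D1:**
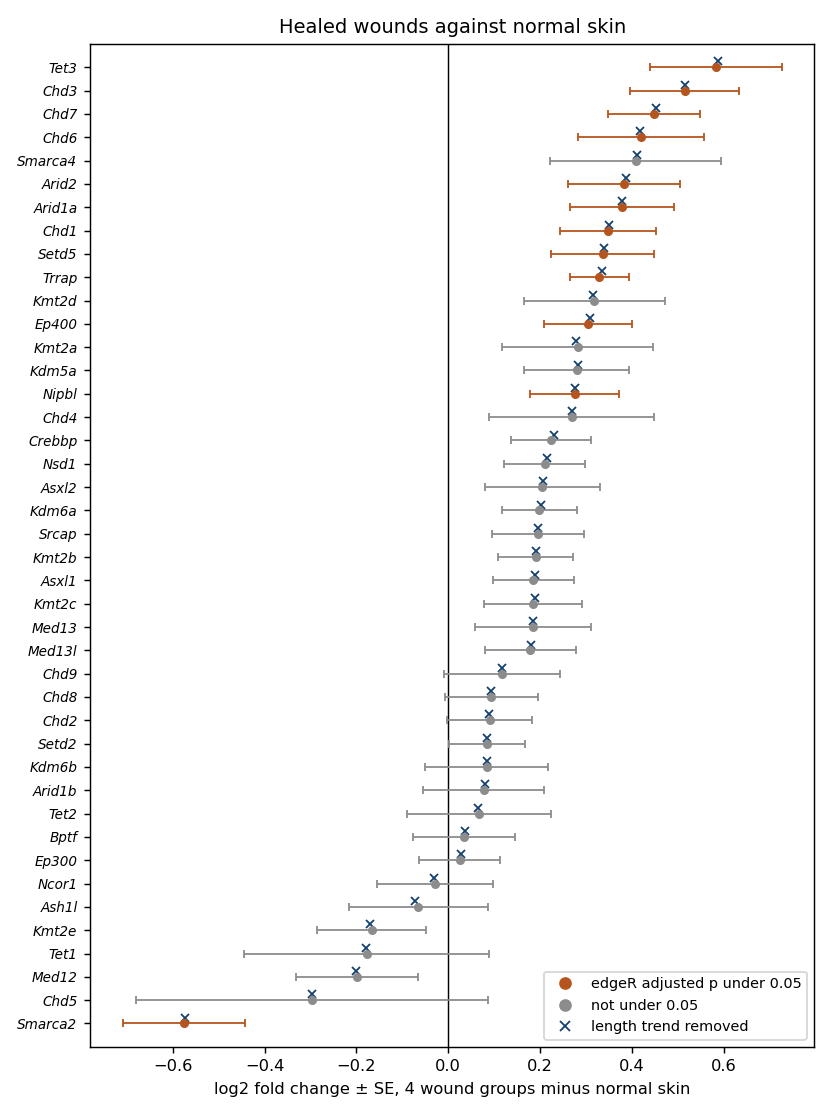
Log2 fold change of each regulator in healed wounds against normal skin (horizontal axis) with its SE, sorted by size. Filled orange points had an edgeR adjusted p under 0.05, and crosses show the value after removal of the length trend. Orange points number 11 on the right and 1, Smarca2, on the left, and the crosses lie close to the points.

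Among the 9 CHD remodellers, Chd1, Chd3, Chd6 and Chd7 rose. Chd7, a remodeller of enhancers that is mutated in CHARGE syndrome, is encoded at chr4:8690402-8868449. It had 46.2, 40.6 and 42.1 CPM in normal skin, 70.1, 60.7 and 68.7 in acellular 10 mm skin, and 64.0, 56.6 and 62.4 in HDB 10 mm skin. In the 15 mm wounds it had 81.5, 60.7 and 71.1 CPM with acellular beads and 44.7, 36.3 and 42.0 with HDB. Each of the 9 samples of the first 3 wound groups was above normal skin, while HDB 15 mm skin overlapped it. The log2 fold change over the 4 wound groups was 0.45 ± 0.10 (SE, edgeR adjusted p = 0.0078), and it was 0.42 without replicate 1 of the acellular 15 mm group.

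Chd3, the NuRD ATPase related to Chd4, rose by 0.52 ± 0.12 on the log2 scale (edgeR adjusted p = 0.0086). Its levels were 58.2, 74.1 and 66.3 CPM in normal skin and lay between 66.3 and 133 CPM in the 12 wound samples, of which 10 were above the highest normal sample. Chd1, which binds methylated H3K4 at active genes, rose by 0.35 ± 0.10 (edgeR adjusted p = 0.026), and Chd6 by 0.42 ± 0.14 (edgeR adjusted p = 0.037). Chd4 itself had 216, 226 and 224 CPM in normal skin and 183 to 564 CPM in wounds, and its difference of 0.27 ± 0.18 did not pass the test. The highest of these was replicate 1 of the acellular 15 mm group, without which the difference was 0.17. Values for Chd2, Chd8 and Chd9 were between 0.09 and 0.12, and Chd5, at 3.48 to 4.63 CPM in normal skin and 0.737 to 5.05 in wounds, had -0.30 ± 0.38, which was -0.19 without that library, its lowest sample.

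The other remodellers held 4 of the rises and the single fall. Trrap, the scaffold shared by the TIP60 and SAGA acetyltransferase complexes, is encoded at chr5:144767737-144859778. It had 70.6, 72.7 and 71.5 CPM in normal skin and 73.1 to 115 CPM in wounds, so that all 12 wound samples were above all 3 normal ones. It rose by 0.33 ± 0.06 (edgeR adjusted p = 0.0046). No other regulator showed this separation, which 9.85% of all tested genes did. Ep400, the ATPase that works beside Trrap in TIP60, rose by 0.30 ± 0.10, and the DNA-binding BAF subunits Arid1a and Arid2 by 0.38 ± 0.11 and 0.38 ± 0.12. Arid1b, Bptf and Srcap had 0.08, 0.03 and 0.20 and did not pass.

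The alternative BAF ATPases Smarca2 (BRM) and Smarca4 (BRG1), which occupy the same position in the complex, differed in sign. Smarca2, at chr19:26605073-26778321, had 136, 160.5 and 151 CPM in normal skin. In wounds it had 117, 101 and 117 CPM (acellular 10 mm), 122, 109 and 103 (HDB 10 mm), 69.6, 89.8 and 119 (acellular 15 mm) and 87.0, 99.4 and 74.1 (HDB 15 mm). All 12 wound samples were below all 3 normal samples, as for 11.1% of all tested genes, and Smarca2 fell by 0.58 ± 0.13 on the log2 scale (edgeR adjusted p = 0.0089). Smarca4 had 108, 99.6 and 93.0 CPM in normal skin and 101 to 282 in wounds, with 10 of 12 wound samples above the highest normal one, and its difference of 0.41 ± 0.19 did not pass the test with all samples (edgeR adjusted p = 0.11). It passed without replicate 1 of the acellular 15 mm group (0.30, edgeR adjusted p = 0.010), without replicate 3 of that group (0.46) and with upper-quartile scaling (0.46). The ratio of Smarca4 to Smarca2 CPM was 0.615 to 0.796 in normal skin and 1.02 to 1.59 in 11 wound samples, and it was 4.06 in replicate 1 of the acellular 15 mm group. This ratio was looked at after the values of both genes were seen and is given without a test.

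**Figure D2:**
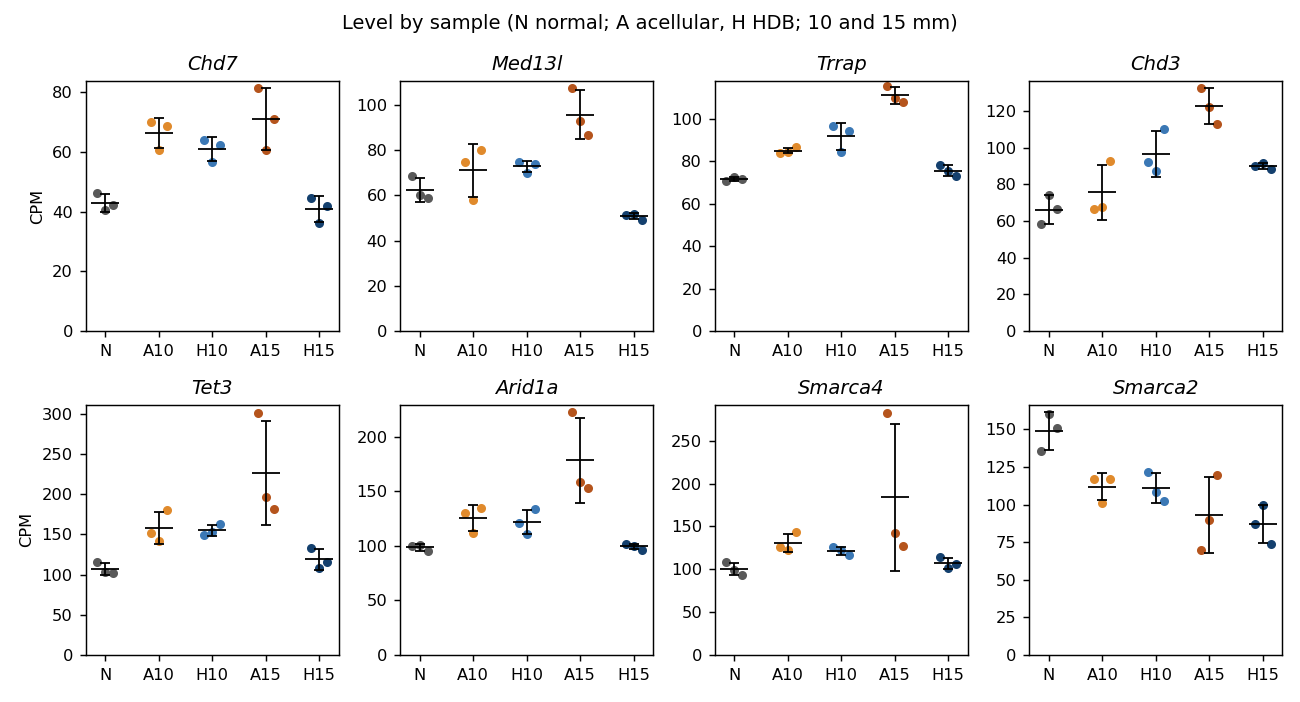
CPM (vertical axis, from 0) of 8 regulators in each sample of normal skin (N) and of skin healed with acellular (A) or HDB (H) beads at 10 and 15 mm. Points are samples, long bars are group means and whiskers are SD (n = 3). Smarca2 is the one gene shown with every wound sample below normal skin, and the high point of Smarca4, Tet3 and Arid1a at A15 is replicate 1.

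Among DNA and histone demethylating enzymes, Tet3 rose by 0.58 ± 0.14 on the log2 scale (edgeR adjusted p = 0.011). It had 116, 103 and 102 CPM in normal skin and 108 to 301 in wounds, with its highest level in replicate 1 of the acellular 15 mm group. Without that sample all 11 regulators stayed called higher, and none had a difference above 0.52. The H3K4 demethylase Kdm5a (0.28, and 0.23 with a call when replicate 1 of the acellular 15 mm group was left out), the H3K27 demethylases Kdm6a (0.20) and Kdm6b (0.08), and Tet1 (-0.18) and Tet2 (0.07) did not pass. Of the other methyltransferases and Polycomb partners only Setd5 rose (0.34 ± 0.11, edgeR adjusted p = 0.040), while the H3K36 methyltransferases Nsd1 and Setd2 had 0.21 and 0.08, Ash1l had -0.07, and the BAP1 partners Asxl1 and Asxl2 had 0.19 and 0.20. Kdm6a and Nsd1 were called higher with DESeq2 and with upper-quartile scaling. Kdm5a and Asxl1 were called with upper-quartile scaling and without replicate 3 of the acellular 15 mm group.

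None of the 5 genes of the H3K4 methyltransferase family passed in this comparison. Kmt2d, which methylates H3K4 at enhancers, had 159, 145 and 146 CPM in normal skin and 132 to 311 in wounds (0.32 ± 0.15), and Kmt2a had 0.28 ± 0.16. Kmt2e had -0.17 ± 0.12 and Med12, of the Mediator kinase module, -0.20 ± 0.13, and these were with Smarca2 the regulators of smallest adjusted p among those with lower values. Med13l, another kinase module subunit, encoded at chr5:118560330-118765438, had 0.18 ± 0.10 (edgeR adjusted p = 0.19). Nipbl, which loads cohesin, rose by 0.28 ± 0.10 (edgeR adjusted p = 0.048). The acetyltransferases Crebbp and Ep300 had 0.22 and 0.02, and Ncor1 had -0.03, a sign that turned with upper-quartile scaling (0.02).

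These calls rested on few normal samples. Leaving out normal replicate 1 left 4 regulators called higher, and leaving out replicate 2 or 3 left 3 in each case, when Smarca2 was no longer called lower. Calls over all genes fell in the same fits, from 2182 higher to 1044, 874 and 662, and the regulators' median stayed at 0.19 to 0.21. Leaving out replicate 1 of the acellular 10 mm group left 6, and replicate 1 of the HDB 15 mm group 7, beside 1782 and 1738 genes called higher. The rises of Trrap, Chd7 and Chd3 passed in every alternative fit that set no minimum fold, with adjusted p of at most 0.049. Normal skin also differed in composition, with 41118 to 49765 CPM over 6 skeletal muscle genes against 516 to 29279.9 in wounds, and 467 to 552 CPM over 5 endothelial genes against 82.8 to 346, and none of these genes was at 0 throughout a group. The 6 proliferation genes differed the other way, with 82.9 to 102 CPM in normal skin and 224 to 1382 in the 12 wound samples, without overlap. The part of these tissues and of proliferation in the result was not tested.

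Each wound group was also set beside normal skin. Regulators called higher than normal skin numbered 3 in acellular 10 mm skin (9.77% of all genes), 3 in HDB 10 mm skin (6.1% of all genes) and 32 in acellular 15 mm skin (17.6% of all genes). The 3 were Trrap, Tet3 and Chd7 with acellular beads and Trrap, Chd3 and Chd7 with HDB. In acellular 15 mm skin 1 was called lower, Smarca2, beside 1942 of all 15369 genes. In HDB 15 mm skin none was called higher, beside 411 of all 15369 genes. There 3 were called lower, namely Smarca2 (-0.78 ± 0.18), Kmt2e (-0.75 ± 0.15) and Med12 (-0.70 ± 0.17), with 2.51% of all genes called lower. These counts depended on the fit. Without replicate 1 of the acellular 15 mm group, whose spread enters all 4 comparisons, they were 11, 16 and 27 higher in acellular 10 mm, HDB 10 mm and acellular 15 mm skin, and over all genes the calls higher went from 1501 to 3015, from 937 to 2193 and from 2701 to 2029. Leaving out any other sample gave 1 to 5, 0 to 4 and 21 to 33, beside 340 to 2025, 39 to 1252 and 1263 to 3571 over all genes. The counts were 8, 13 and 33 with upper-quartile scaling, beside 1942, 1495 and 2960 over all genes, and 9, 2 and 18 with the length trend removed, beside 1630, 935 and 2476. They were 8, 7 and 7 when only the groups compared were fitted, beside 2980 of 14748, 1575 of 14813 and 430 of 14791 genes. The 3 lower in HDB 15 mm skin became 0 with the replicate block, without HDB 15 mm replicate 1 or 3 and without any 1 of the normal samples, where the calls lower over all genes also fell, from 385 to between 12 and 88, and the regulators' median there turned from -0.14 to 0.07 with the length trend removed. The 4 comparisons share the normal samples, and the wound samples are those of the contrast that chose the set, so these counts are descriptions. Smarca2 was below normal skin in all 4 groups, by -0.41, -0.43, -0.68 and -0.78 for acellular 10 mm, HDB 10 mm, acellular 15 mm and HDB 15 mm.

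**Figure D3:**
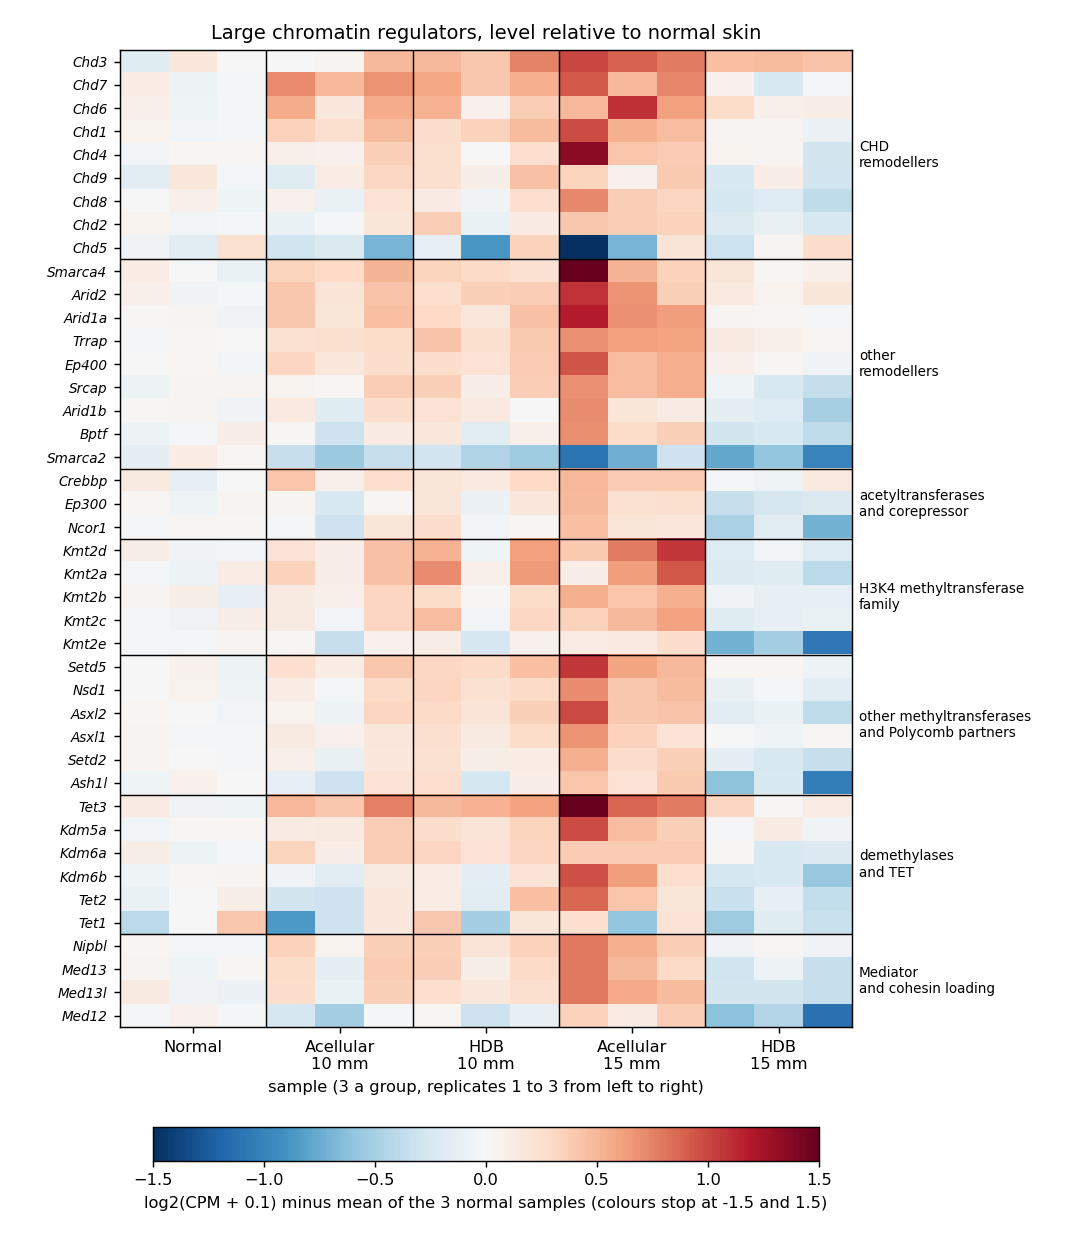
Level of the 42 regulators (rows, by role) in the 15 samples (columns), as log2(CPM + 0.1) minus the mean of the normal samples. Red is higher and blue lower, and colours stop at the ends of the scale. The acellular 15 mm columns are mostly red, with replicate 1 darkest, the HDB 15 mm columns are pale or blue, and the Smarca2 row is blue in every wound group.

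Other subunits of the same complexes were counted from lists of 130 genes, of which 129 were tested. In healed wounds 25 of them rose and 10 fell, with a median log2 fold change of 0.15, beside the 14.2% and 16.7% of all tested genes given above. The lists below are short, and their counts are a description. The COMPASS list holds the H3K4 methyltransferases Setd1a and Setd1b and subunits that assemble with such enzymes. It had 4 rises and no fall among 12, namely Men1 (0.53 ± 0.13), Cxxc1 (0.34 ± 0.09), Paxip1 (0.33 ± 0.10) and Ncoa6 (0.30 ± 0.09). All 12 had higher values, beside 8225 of all 15369 genes. In NuRD 3 of 11 rose (Mta2, Hdac1 and Mta3). The Polycomb list had 5 rises and 2 falls among 22, with the H3K27 methyltransferase Ezh2 up by 1.00 ± 0.26 and Cbx7 down (-0.71 ± 0.21). Among 19 BAF subunits Smarcb1 (0.54 ± 0.15) and Ss18 (0.38 ± 0.09) rose, and Dpf3 (-1.70 ± 0.43), Smarcd3 (-1.58 ± 0.45) and Bcl7b (-0.32 ± 0.08) fell. Dpf3 and Smarcd3 are known from the BAF complexes of heart and skeletal muscle. Whether the lower skeletal muscle markers of wounds had a part in these falls was not tested. Mediator had 6 rises and 2 falls among 30, cohesin 1 fall among 9, the INO80, SRCAP and TIP60 list 4 rises and 2 falls among 21, and the NCoR list 1 rise among 5.

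Wound size was compared next, as the mean of both 15 mm groups against that of both 10 mm groups. None of the 42 regulators passed in edgeR, where 0.397% of all genes were called, and 5 had an unadjusted p under 0.05. The median was 0.00, with 21 higher and 21 lower, beside 8553 of all 15369 genes higher. This split moved with single samples, to 11 of 42 higher (median -0.04) without replicate 1 of the acellular 15 mm group and to 30 of 42 (median 0.04) without replicate 3 of the acellular 10 mm group. The smallest adjusted p belonged to Chd3 (0.30 ± 0.10, edgeR adjusted p = 0.19), and next came Chd7 (-0.24 ± 0.09, edgeR adjusted p = 0.21), Smarca2 (-0.31 ± 0.12) and Kdm6a (-0.16 ± 0.07). Chd4 had 0.20 ± 0.16 and Arid1a 0.11 ± 0.10, and without replicate 1 of the acellular 15 mm group these became 0.00 and 0.01. DESeq2 called 1 regulator, Chd3, among 6.67% of all genes, and edgeR without replicate 3 of the acellular 15 mm group called 1, Smarca2, beside 367 higher and 353 lower of 15552 genes.

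HDB and acellular beads, the contrast behind the choice of the set, are described at each size. At 15 mm, 31 regulators were called lower with HDB and none higher, where 2.35% of all genes were called lower. The count became 0 when any 1 of the HDB 15 mm samples was left out or when only the groups compared were fitted, and in those 4 fits no gene at all was called, while the regulators' median lay between -0.70 and -0.64. Without replicate 1 of the acellular 15 mm group the count was 21, beside 127 lower of 15524 genes. All 3 HDB samples were below all 3 acellular ones for 38 regulators, as for 11.7% of all genes, the exceptions being Chd5, Chd9, Smarca2 and Tet1. The median log2 difference was -0.67. With the replicate number as a block over all groups, 22 were called lower (0.904% of all genes). That fit also pairs the numbers at 10 mm and in normal skin. In the 15 mm groups alone with the block none was called, with a median of -0.66. At 10 mm none was called (0% of all genes), and the median was 0.08, with 33 of 42 higher, beside 7414 of all 15369 genes. It turned to -0.06, with 13 of 42 higher, when the length trend was removed, beside 7001 of 15085 genes. Over both sizes edgeR called none (0% of all genes), with a median of -0.31. Without replicate 3 of the acellular 15 mm group it called 6 lower, beside 153 lower of 15552 genes, and DESeq2 called 19 lower with all samples (2.01% of all genes). Among the marker lists, the proliferation genes were at 1382, 248 and 284 CPM in acellular and 247, 228 and 224 in HDB 15 mm skin, so that the HDB samples were all lower, by a narrow margin for the nearest pair. Hair shaft keratins (7.59 to 9336 CPM against 31.8 to 319) and 6 macrophage genes (72.6 to 247 against 197 to 363) overlapped between these groups. So did 6 fibroblast genes (3416 to 14609 against 8124 to 18316) and the remaining lists. At 10 mm only the fibroblast genes were without overlap, at 3516 to 5433 CPM with acellular beads and 8947 to 11811 with HDB. None of the genes of these named lists was at 0 throughout any of these groups, and their part in the values was not tested.

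Med13l had 108, 92.8 and 86.6 CPM in acellular and 51.4, 51.6 and 49.2 in HDB 15 mm skin, a log2 difference of -0.91 ± 0.13. At 10 mm it had 75.0, 58.0 and 80.1 CPM with acellular beads and 74.6, 70.0 and 73.9 with HDB (0.04 ± 0.12), and normal skin had 68.6, 60.1 and 58.8. The HDB 15 mm samples were thus the lowest of all, and the acellular 15 mm samples the highest. For Chd7 the log2 difference was -0.79 ± 0.12 at 15 mm and -0.12 ± 0.12 at 10 mm, the lowest value of the set at that size. Tet1 was highest at 10 mm (0.36 ± 0.34). Kdm6b was lowest at 15 mm (-0.99 ± 0.17), with 82.0, 64.8 and 49.9 CPM in acellular and 34.8, 35.7 and 28.2 in HDB skin, and Chd5 was highest (0.64 ± 0.50). The Chd5 value was 0.20 without replicate 1 of the acellular 15 mm group (0.737 CPM) and 1.35 without replicate 3 of that group. Tet2 had -0.79 ± 0.20 at 15 mm.

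The low values at 15 mm went with transcript length across all genes. Over 4 equal classes of transcript length, the median log2 difference between HDB and acellular 15 mm skin was 0.26 in the shortest class, 0.07 in the next, then -0.05, and -0.26 in the longest. The 2140 other genes at least as long as the shortest regulator had a median of -0.33, beside -0.67 for the regulators. After each sample's length trend was removed, none of the regulators and none of the genes with a length (0%) were called. The regulators' median was then -0.27, with 37 of 42 still lower, while 7471 of all 15085 genes were higher. The 2140 other long genes then had a median of 0.01. Without replicate 1 of the acellular 15 mm group the regulators' median was -0.55 and, with the length trend removed as well, -0.17. With the length trend removed and all samples kept, the difference became -0.52 for Med13l, -0.36 for Chd7, -0.72 for Kdm6b, and -0.70 instead of -0.99 for Med12. In that fit Trrap came to -0.06 from -0.55 and Kmt2c to -0.06 from -0.62.

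**Figure D4:**
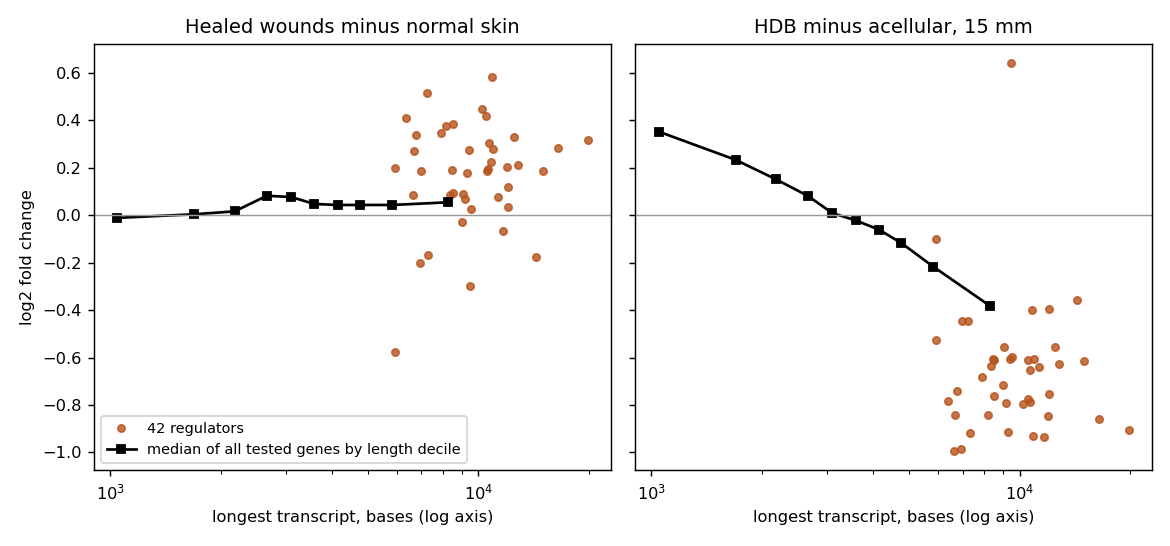
Log2 fold change (vertical axis) against the length of the longest transcript (horizontal, log axis) for healed wounds against normal skin and for HDB against acellular beads at 15 mm. Circles are the 42 regulators and squares the medians of all tested genes in 10 classes of length. The squares are nearly level in the first comparison and descend with length in the second.

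In the mean of the 4 wound groups against normal skin the trend was nearly level, while the 15 mm groups had opposite trends. From the shortest to the longest class, the median went from -0.11 to 0.20 in acellular 15 mm and from 0.10 to -0.10 in HDB 15 mm skin against normal skin. Other genes of the regulators' lengths had a median of 0.04 in healed wounds against normal skin, the regulators 0.19 both before and after the trend was removed, and 13 instead of 11 were called higher, the same 11 with Kmt2b and Kmt2d (15% of all genes in that fit). By sample, the mean log2 level of the regulators relative to all samples was -0.13 to -0.12 in normal skin, 0.26 to 0.48 in acellular 15 mm skin and -0.38 to -0.23 in HDB 15 mm skin. The trend of all genes at the regulators' lengths amounted to 0.18 to 0.26 in the acellular and -0.30 to -0.08 in the HDB 15 mm samples, and after its removal the regulators' means were 0.03 to 0.29 and -0.15 to -0.07. In 10 mm skin the means after removal were 0.01 to 0.10, above the -0.14 to -0.11 of normal skin in all 6 samples. Why transcript length moved with the groups was not tested.

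**Figure D5:**
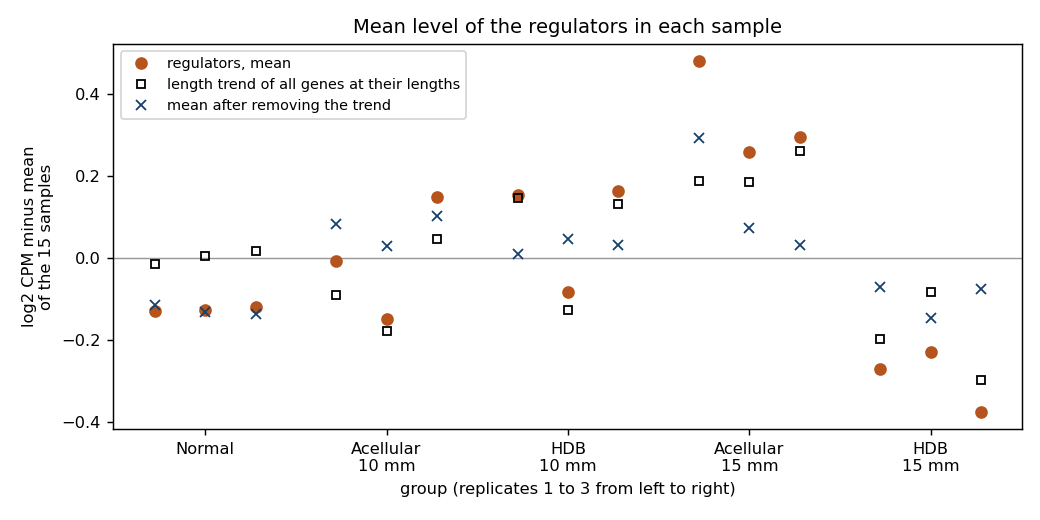
Mean log2 CPM of the 42 regulators in each sample relative to the mean of all 15 samples (circles), the length trend of all genes read at the regulators' lengths (squares), and their difference (crosses). Circles and squares are both high in acellular 15 mm and low in HDB 15 mm samples, and the crosses of normal skin are below 0.

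The difference of the bead effect between sizes (15 mm minus 10 mm) is built from the HDB and acellular 15 mm values that chose the set, so it too is a description and no evidence of its own. The regulators' median was -0.73, and it was -0.22 with the length trend removed. Trrap had -0.67 ± 0.11 and Med13l -0.95 ± 0.18, and these came to -0.01 and -0.44 with the length trend removed. EdgeR called no regulator and no gene (0%), and DESeq2 called 33 regulators with lower values, beside 3.87% of all genes.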

How the data were processed

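RNA from 15 skin samples was purified with oligo(dT) beads, primed with random hexamers and sequenced. Strandedness is not given in the sources used here. Per gene and sample, an expected count (an estimated count, not normalized) was deposited by the authors in 1 table, and the submitters' processing notes name HISAT2 2.0.4, Bowtie2 2.2.5, RSEM 1.2.12 and GRCm38.p6. Estimated counts share reads among similar genes, so values of paralogues are uncertain to that extent. Nothing says that the samples of a group came from separate mice, so p-values measure the spread between samples.

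Counts were rounded and fitted in edgeR 4.0.16 (R 4.3.3) with TMM scaling, filterByExpr and quasi-likelihood tests, with the means of the 5 groups in 1 model. P-values were Benjamini-Hochberg adjusted over all 15369 genes at a threshold of 0.05, and each SE was taken from the fold change and its F statistic (their ratio, F under the root). Log2 CPM used a prior count of 2. Transcript lengths (GENCODE vM21, longest per Entrez identifier) served for CPM per kb and for a lowess trend (span 0.4) removed as an offset. Alternatives were DESeq2 1.42.0, upper-quartile scaling, no filter, a mean of at least 50 counts, the replicate number as a block, length and GC trends with and without the block, only the groups compared, a log2 fold change of at least 1, and leaving out each sample. Scripts were tested on simulated data.

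The bead contrast and its difference between sizes were planned with a test for the latter and are given as descriptions, since they hold the values that chose the set. The regulators, their roles and all gene lists were chosen with earlier results of these data known. Named were Chd7 and Med13l, in the wound and size comparisons the 3 regulators of smallest adjusted p in each direction, in each bead comparison the largest and smallest value, and the 3 highest and lowest levels per kb. Other names give counts or the remaining called genes. At 15 mm, acellular and HDB samples of the same number departed alike from the mean of each group (r = 0.397, 0.167 and 0.183), and no other pair of groups had a correlation over 0.1 in all 3 numbers. The numbers were thus read as pairing samples at 15 mm only. The replicate block in the fits over all groups nevertheless took them as pairing in every group, and an added fit held the 15 mm groups alone.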

Additional observations from a re-analysis of the deposited data

How the results depend on the processing

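In healed wounds DESeq2 called 14 regulators higher (2955 of all 15369 genes), the 11 of edgeR with Crebbp, Kdm6a and Nsd1. Regulators called higher in healed wounds numbered 18 with upper-quartile scaling (2894 of all 15369 genes), 0 where a log2 fold change of 1 or more was asked for, and 3 to 14 when 1 sample was left out (662 to 3123 of all genes), against 11 (2182). The 1 called lower became 0 at that fold and 0 to 1 when a sample was left out. With the replicate block 8 rose and 1 fell, beside 1884 and 2316 of all genes. DESeq2 called 1 regulator for wound size and 33 in the difference of the bead effect between sizes, where edgeR called none. Samples were left out in edgeR only, which then called 0 to 1 and 0. At 15 mm the 31 regulators lower with HDB became 0 with the length trend removed, with or without the replicate block, 0 at the fold of 1, 0 when only the groups compared were fitted, also with the block, and 0 to 37 when a sample was left out (0 to 1799 of all genes). Each HDB 15 mm sample left out gave 0 regulators and 0 genes of any kind, with the regulators' median at -0.70 to -0.64, which leaves 2 samples in that group, and the cause was not tested.

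Removing the length trend moved the regulators' median log2 difference to -0.22 (-0.22 with the block) for the difference between sizes, to -0.17 (-0.17) over both sizes, to -0.0564 (-0.0542) at 10 mm and to -0.27 (-0.27) at 15 mm. Leaving out a sample gave -0.87 to -0.64, -0.35 to -0.23, 0.00 to 0.15 and -0.75 to -0.55 in that order, and 0.18 to 0.22 in healed wounds. In 2 fits chosen after seeing the data, the 15 mm groups alone with the block called 0, and the length trend removed without acellular 15 mm replicate 1 called 20 higher in healed wounds (3266 of 15217 genes) and 0 lower at 15 mm with HDB, with medians of -0.10, -0.10, -0.057 and -0.17. Among named genes, Ncor1 turned sign in healed wounds with upper-quartile scaling (0.0224) and without acellular 10 mm replicate 2 or HDB 15 mm replicate 3 (range with a sample left out -0.0669 to 0.0018), and Tet1 without normal replicate 3 (range -0.359 to 0.0525). The low counts of Chd5 and Tet1 limit their precision.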
